A study of Mus musculus with 2 samples.

Results

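The glycogen genes of the liver were examined in mice that lack apolipoprotein E, with and without dietary oleanolic acid, a plant triterpenoid. The set comprised 9 genes of glycogen synthesis and breakdown, chosen by symbol: Gys2, Pygl, Ppp1r3b, Ppp1r3c, Gbe1, Ugp2, Gyg, Pgm1 and Pgm2. Every probe set annotated with 1 symbol, and that symbol among the 9, was taken, which gave 13 probe sets for 8 genes out of 12393 genes with such a probe set. Ppp1r3b, the glycogen-targeting subunit first described in liver, had none and was not analysed here.

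The oleanolic acid array carried pooled liver RNA of male mice, apolipoprotein E-deficient with the strain background C57BL/6J, which for 11 weeks ate a semipurified Western diet with 0.01% oleanolic acid (10 mg per kg per day). The control array carried pooled liver RNA of male mice on the Western diet alone for 11 weeks, labelled with the same genotype and background. The labels give an age of 2 months for both, which is shorter than the 11 weeks of diet and so was not taken as the age at collection. All animals therefore carried the Apoe deficiency and ate the Western diet, and no wild-type or low-fat group was analysed here. The sources used here give no number of mice per pool, no feeding state and no hour of collection. The growth protocol attached to both arrays mentions oleanolic acid, and the diet was therefore taken from the title of each array. Each diet was represented by n = 1 pooled array, so the differences below have no replicate check and no p-value, and they describe these 2 arrays only.

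Liver stores glucose as glycogen after feeding and releases it between meals. Phosphoglucomutase turns glucose 6-phosphate into glucose 1-phosphate, UDP-glucose pyrophosphorylase activates it to UDP-glucose, glycogenin primes the particle, glycogen synthase lengthens its chains and the branching enzyme adds the branch points. Glycogen phosphorylase takes glucose 1-phosphate off the chain ends, and targeting subunits bring protein phosphatase 1 to the particle, where it activates the synthase and inactivates the phosphorylase. These enzymes are controlled largely by phosphorylation, which transcript levels do not show.

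Values are MAS5 probe set signals in arbitrary units. A probe set was counted as measured when it reached the array median on at least 1 array, 59.3 units on the oleanolic acid array and 61.5 on the control array, and all 13 glycogen probe sets met this, as did 7137 genes in all. Log2 ratios are oleanolic acid over control. The probe set SD given as the error is the spread of log2 ratios over the gene's probe sets or, where a gene had 1 probe set, the pooled spread of genes in the same of 4 bands of mean signal (0.27, 0.25, 0.17 and 0.13 from the dimmest to the brightest band). It covers differences between probe sets on these arrays, and neither error shared by a whole array nor variation between mice.

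The 2 arrays were alike in most genes: the central 95% of gene log2 ratios ran from -0.56 to 0.51, with a median of 0.0012. The hepatocyte markers were bright, with signals of 8950.3 on the oleanolic acid array and 8540.0 on the control array for Alb, the albumin gene, and 7 of 7 hepatocyte marker genes with a probe set were measured. Of these, 6 lay within 0.5 of 0 and 1 below -0.5: Tat, tyrosine aminotransferase, gave 2725.3 units on the oleanolic acid array and 4439.7 on the control array, a log2 ratio of -0.70 with a probe set SD of 0.13. Markers of some other tissues differed between the arrays. All 7 measured genes of the exocrine pancreas list (of 9 listed) lay below a log2 ratio of -1, against 0.631% of all measured genes. Their measured probe sets all lay under the oleanolic acid array's median of 59.3 units and passed through the control array alone. That way of passing favours low ratios, so the 7 of 7 is not a like comparison with the share of all genes. That list summed to 430.1 units on the oleanolic acid array and 1573.1 on the control array. The B and plasma cell list summed to 440.9 and 1529.2 units on those arrays. Most of that gap lay in 2 Ighm probe sets, at 113.7 and 59.6 units on the oleanolic acid array and 839.8 and 351.6 on the control array. Jchain was lower as well (43.8 and 133.9), while several dim Ighm probe sets were higher on the oleanolic acid array. Cd79a and Cd79b were nearly level and not measured. The 3 brown fat markers summed to 25.5 units on the oleanolic acid array and 194.3 on the control array, with Ucp1 and Cox8b below the 25th percentile of the oleanolic acid array (10.1 units), which was used as a floor for signals. Jchain, Ucp1 and Cox8b also reached the median on the control array alone. Of 4 cholangiocyte markers only Epcam was measured, likewise through the control array alone, at -0.94 (probe set SD 0.27). Among the dim others, Sox9 was higher on the oleanolic acid array (0.76 and 1.34), while Krt19 (-0.19) and Krt7 (-0.05) were slightly lower. The cholangiocyte list summed to 135.0 units on the oleanolic acid array and 134.6 on the control array. Of 6 macrophage markers 1, Marco, lay below -0.5, at -0.67 (probe set SD 0.25), against 3.24% of all measured genes. All 6 lay below 0, against 49.7% of all measured genes, with a median of -0.15. The 6 skeletal muscle markers summed to 68.5 units on the oleanolic acid array and 63.0 on the control array over 7 probe sets, and none of them was measured. Of 4 stellate cell markers 2 were measured, Lrat at 0.66 (probe set SD 0.27) and Col3a1 at -0.15. Lrat reached the median on the oleanolic acid array alone. The 4 endothelial markers lay within 0.5 of 0, 3 above 0 and 1, Kdr, below it at -0.32. Of the erythroid markers only Alas2 was measured, at -0.07. The part of these other tissues in the values below was not tested. In whole liver RNA, fewer cells of a type and less RNA per cell cannot be told apart.

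Glycogen synthase and a glycogen-targeting subunit lay furthest from 0, in opposite directions. Gys2, the liver glycogen synthase, had the lowest log2 ratio of the set, -0.70, and Ppp1r3c, a targeting subunit of protein phosphatase 1, had the highest, 0.84. Gyg and Gbe1 were lower on the oleanolic acid array by less than 0.5, and Ugp2, Pgm1, Pgm2 and Pygl lay within 0.15 of 0. Of the 8 genes, 1 was above 0.5 and 1 below -0.5, while 2.63% of all measured genes were above 0.5 and 3.24% below -0.5. No glycogen gene passed the log2 ratio of 1.5 in either direction that the submitters used, nor 1. Above 1.5 lay 0.112% of measured genes and below -1.5 lay 0.28%, while 0.392% were above 1 and 0.631% below -1. A total of 6 of the 8 genes had a log2 ratio below 0, against 49.7% of measured genes, and 2 of the 8 lay above 0, against 50.2%; the median over the 8 was -0.11, beside 0.0012 over all measured genes.

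**Figure D1:**
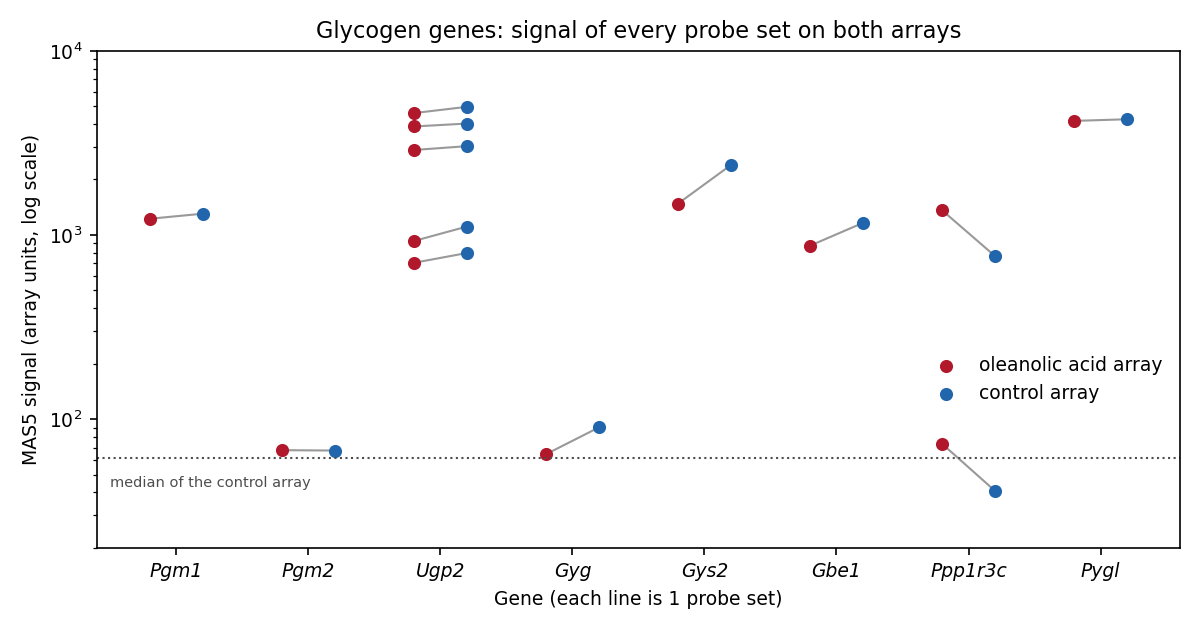
MAS5 signal (log scale, array units) of each of the 13 glycogen probe sets on the oleanolic acid array (red, left) and the control array (blue, right), with a line joining the signals of 1 probe set and a dotted line at the control array's median of 61.5. Heights of different probe sets cannot be compared with each other; the steepest lines are those of Gys2, 1479.6 and 2395.6 units on the oleanolic acid and control arrays, and of both Ppp1r3c probe sets, which slope the other way.

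Ppp1r3c encodes the targeting subunit known as protein targeting to glycogen, a scaffold that binds protein phosphatase 1 together with its glycogen-metabolising substrates. Its brighter probe set (1433691_at) gave 1360.5 units on the oleanolic acid array and 768.4 on the control array, 1.77-fold. Its dimmer probe set (1425631_at) gave 73.4 units on the oleanolic acid array and 40.8 on the control array, 1.80-fold. These probe sets differ widely in brightness and gave nearly the same ratio, with a gene value of 0.84 ± 0.02 (SD, n = 2 probe sets) or 1.78-fold. The dimmer of them lay under the array median in the control and was counted as measured through the oleanolic acid array alone. That way of passing favours a high ratio, so the near equality is a weak check. The gene value depended on how such signals are treated. It was 0.54 when signals under the array median were set to that median and 0.73 with an offset of 16 units in place of a floor. With both arrays required to reach the median only the brighter probe set remained, at 0.82, with no SD between probe sets. Of all 7137 measured genes, 39 had a higher log2 ratio than Ppp1r3c, and in its own band of mean signal 8 of 1784 did. Its distance from Gys2 was 1.53 on the log2 scale (combined probe set SD 0.13). That combined SD is nearly the SD of Gys2 alone. The small SD of Ppp1r3c comes from 2 probe sets, while the pooled SD of its band is 0.25.

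Because Ppp1r3c was the highest gene of the set, the 250 bases before its RefSeq transcription start are shown, in GRCm38.p6 on the minus strand at chr19:36736605-36736854. The capitals mark the only match to the E-box CACGTG, the sequence bound by the clock activators and by other basic helix-loop-helix factors such as USF.
Ppp1r3c: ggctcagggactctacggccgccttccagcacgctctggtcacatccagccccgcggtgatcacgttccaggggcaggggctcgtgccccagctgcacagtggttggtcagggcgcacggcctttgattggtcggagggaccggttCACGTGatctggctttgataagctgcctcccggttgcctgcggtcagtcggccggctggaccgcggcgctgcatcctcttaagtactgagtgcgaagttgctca
The E-box begins 104 bases before the start. A total of 7 of the 9 genes had 8 such windows in the RefSeq promoter table (Ugp2 has 2 starts; Gys2 and Ppp1r3b had no entry), and 1 of the 8 held CACGTG, which reads the same on both strands, beside 6.02% of all 32851 windows of that length. The D-box sequence TTATGNAA, searched on both strands, was found in 0 of the 8 windows and in 3.07% of all. The full cAMP response element TGACGTCA, also the same on both strands, was found in 0 of the 8 and in 1.55% of all. A match describes the letters only, and no binding was measured.

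Gys2 catalyses the step that lengthens the chains and is the synthase isoform of liver. Its probe set (1424815_at) gave 1479.6 units on the oleanolic acid array and 2395.6 on the control array, with a log2 ratio of -0.70 (probe set SD 0.13), and the signal was 1.62-fold higher on the control array. This is over 2 times its probe set SD. Among the 1785 genes in the brightest band of mean signal, where 1.01% lay below -0.5, 9 had a lower log2 ratio than Gys2, and over all measured genes 104 did. Only 1 probe set reports Gys2, so no second probe set checks this ratio.

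Gyg encodes glycogenin, the self-glucosylating protein that starts each particle. It gave 64.5 units on the oleanolic acid array and 90.1 on the control array (probe set 1448429_at), a log2 ratio of -0.48 with a probe set SD of 0.27. Both signals lay close to the array median, and in this dimmest band 145 of 1784 genes had a lower ratio, which is 8.13% of them, while 0.504% of the genes in the band of Gys2 were lower than Gys2. Gbe1, the branching enzyme, gave 874.4 units on the oleanolic acid array and 1162.1 on the control array (1420654_a_at), a log2 ratio of -0.41 with a probe set SD of 0.13. In its band, the brightest, 33 of 1785 genes were lower. Gbe1 and Gys2 differed in log2 ratio by -0.28 (Gys2 minus Gbe1, combined probe set SD 0.19), which is between 1 and 2 combined SDs.

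The genes that supply UDP-glucose lay closer to 0. Ugp2, UDP-glucose pyrophosphorylase, was reported by 5 probe sets, the most in the set, and 5 of 5 were lower on the oleanolic acid array. The brightest gave 4587.4 units on the oleanolic acid array and 4960.6 on the control array. The lowest ratio came from a probe set at 927.1 and 1110.3 units on those arrays. Single ratios ran from -0.26 to -0.05, and the gene value was -0.13 ± 0.09 (SD, n = 5 probe sets). The 5 probe sets report the same RNA on the same arrays and are no replicates of the diet. The log2 ratio of Gys2 minus that of Ugp2 was -0.56 (combined probe set SD 0.16).

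Pgm1 encodes the phosphoglucomutase that interconverts glucose 1-phosphate and glucose 6-phosphate. It gave 1224.2 units on the oleanolic acid array and 1304.2 on the control array (1451149_at), a log2 ratio of -0.09, within its probe set SD of 0.13. Pgm2, whose human counterpart acts mainly on pentose phosphates, gave 67.8 units on the oleanolic acid array and 67.5 on the control array (1453283_at), a log2 ratio of 0.0064 with a probe set SD of 0.27. The RefSeq table lists the symbol of each of these genes as a synonym of the other, so they are identified here by their gene identifiers, 72157 for Pgm1 and 66681 for Pgm2.

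Pygl, the liver glycogen phosphorylase, is the enzyme of glycogen breakdown in the set. Its probe set (1417741_at) gave 4160.3 units on the oleanolic acid array and 4246.8 on the control array, a log2 ratio of -0.03, well within its probe set SD of 0.13. The log2 ratio of Gys2 minus that of Pygl was -0.67 (combined probe set SD 0.19), and that of Gbe1 minus that of Pygl was -0.38 with the same combined SD. The synthase and the phosphorylase thus differed unequally between these arrays, the synthase being lower on the oleanolic acid array while the phosphorylase was nearly level. Pgm1, Pgm2 and Pygl lay within their probe set SD of 0, and Ppp1r3c, Gys2 and Gbe1 lay beyond 2 times it. The shares of all measured genes within and beyond these limits were not computed. For Ppp1r3c the SD comes from 2 probe sets, while the pooled SD of its band is 0.25.

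**Figure D2:**
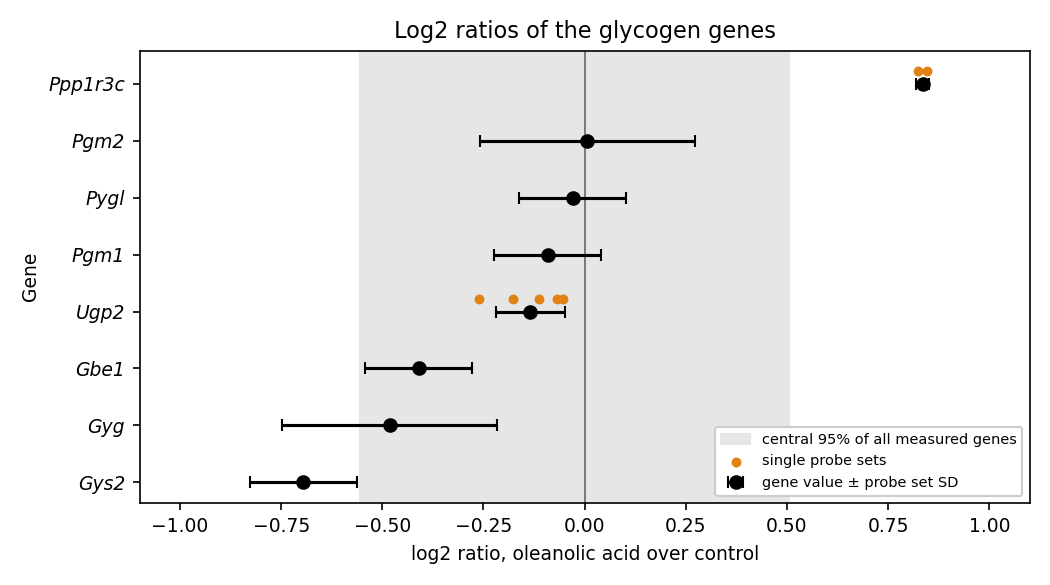
Log2 ratio (oleanolic acid over control) of the 8 glycogen genes, with bars for the probe set SD, orange points for single probe sets where a gene has several, and grey shading for the central 95% of all measured genes (-0.56 to 0.51). Gys2 at -0.70 and Ppp1r3c at 0.84 lie outside the shading and the other genes inside it.

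The remaining enzymes of glycogen metabolism lay near 0. Of 16 further enzymes and glycogen-binding proteins listed, 11 had a probe set and 7 were measured. Among these 7, 0 were above 0.5 and 0 below -0.5, with a median log2 ratio of -0.06. Most genes lay as near, 6718 of all 7137 measured genes being within 0.5 of 0. Phkb, the beta subunit of phosphorylase kinase, which activates the phosphorylase, was lowest: 189.5 units on the oleanolic acid array and 233.7 on the control array, -0.30 on the log2 scale (probe set SD 0.25). Its hepatic alpha subunit Phka2 was at -0.13 (probe set SD 0.17). Stbd1, which tethers glycogen to membranes, was at -0.14 (probe set SD 0.13). The brain isoform of phosphorylase, Pygb, had the highest ratio, 0.32 with a probe set SD of 0.27, on dim signals of 65.3 units on the oleanolic acid array and 52.4 on the control array.

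The muscle isoforms were dim. Gys1, the muscle synthase, had signals of 12.5 and 19.8 units on the oleanolic acid array and of 18.0 and 4.6 on the control array over 2 probe sets, with ratios of opposite sign, and was not measured. Pygm, the muscle phosphorylase, had 3.8 units on the oleanolic acid array and 14.8 on the control array and was not measured either. Without detection calls such signals cannot be told from background.

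Measured genes of the kinases and phosphatases that act on glycogen enzymes lay within 0.5 of 0, as did 6718 of all 7137 measured genes. Of 31 listed, 20 had a probe set and 14 were measured, 7 above 0 and 7 below, with a median of 0.0027. Gsk3a, a synthase kinase, gave 239.2 units on the oleanolic acid array and 282.8 on the control array, with a log2 ratio of -0.24 (probe set SD 0.17), and its relative Gsk3b gave 129.1 and 114.7 units on those arrays, 0.17 (probe set SD 0.27). The protein kinase A catalytic subunit Prkacb was lowest at -0.30 (probe set SD 0.17), and Csnk2a2, a casein kinase subunit, highest at 0.19 ± 0.10 (SD, n = 5 probe sets). Prkab1, a subunit of AMP-activated kinase, was at 0.18 (probe set SD 0.25). Of the other targeting subunits, Ppp1r3a and Ppp1r3f were too dim to be measured and Ppp1r3d, Ppp1r3e and Ppp1r3g had no probe set with 1 symbol, so Ppp1r3c is the only targeting subunit with a value here.

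Among genes of glucose entry and release, 15 of 22 were measured, 1 of them above 0.5 and 1 below -0.5, with a median of -0.09. Over all measured genes, 2.63% were above 0.5 and 3.24% below -0.5. Slc37a4, which carries glucose 6-phosphate into the endoplasmic reticulum for release as glucose, gave 1386.5 units on the oleanolic acid array and 1921.2 on the control array, with a log2 ratio of -0.47 (probe set SD 0.13). G6pc, the phosphatase that follows it, gave 4524.7 units on the oleanolic acid array and 4248.0 on the control array, 0.09 (probe set SD 0.13). The glucose transporter Slc2a2 gave 4661.5 and 5122.8 units on those arrays, -0.14 (probe set SD 0.13). Hk1, a hexokinase of most tissues, was highest at 0.59 (probe set SD 0.27) on 93.1 units on the oleanolic acid array and 61.7 on the control array. Pklr, liver pyruvate kinase, was lowest at -0.55 ± 0.14 (SD, n = 3 probe sets), and Galt, which moves galactose into the UDP-sugar pool, was at 0.31 (probe set SD 0.13).

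Genes of insulin and glucagon signalling, the hormones that govern glycogen turnover, lay within 0.5 of 0 in 19 of 19 measured cases out of 24 listed. Their median was -0.09, and the same range held 6718 of all 7137 measured genes. The lowest were Pik3r1, the regulatory subunit of phosphoinositide 3-kinase, at -0.50 ± 0.18 (SD, n = 3 probe sets), the insulin-restrained transcription factor Foxo1 at -0.48 ± 0.08 (SD, n = 3 probe sets) and the CREB coactivator Crtc2 at -0.44 (probe set SD 0.27). Trib3, an inhibitor of Akt, was highest at 0.36 ± 0.18 (SD, n = 2 probe sets). The insulin receptor gene Insr was too dim to be measured.

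**Figure D3:**
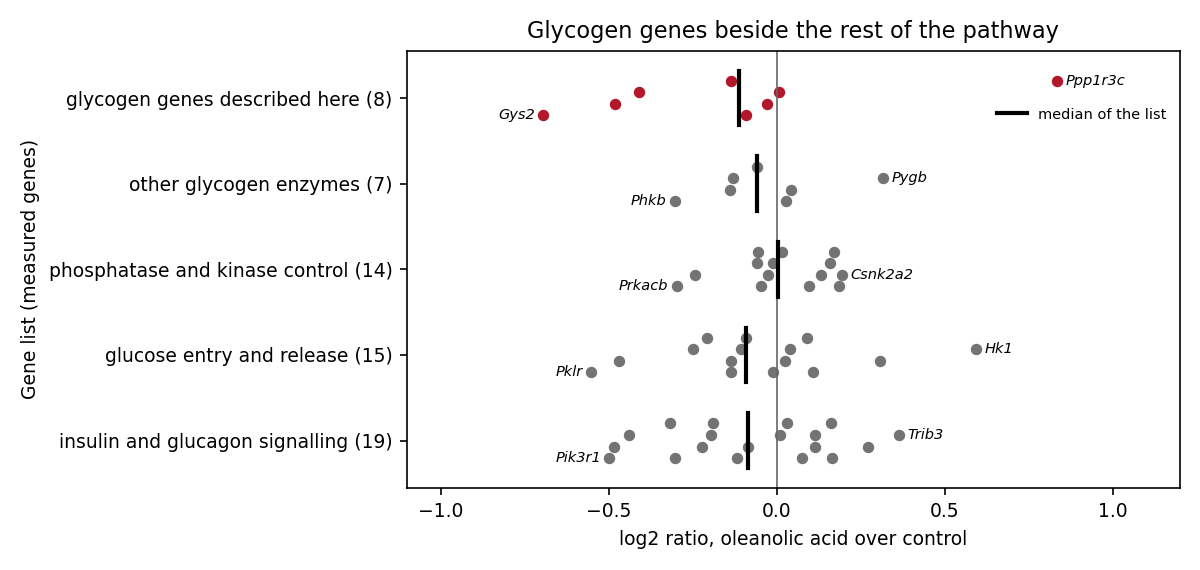
Log2 ratio (oleanolic acid over control) of each measured gene in the glycogen set (red) and in 4 related lists (grey), with the number of measured genes in parentheses, black bars for list medians and the lowest and highest gene of each list named. Ppp1r3c at 0.84 and Gys2 at -0.70 have the highest and lowest values of all genes drawn.

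Hepatic glycogen and several of its genes, Gys2 among them, are known to follow a daily rhythm, and clock genes differed between these arrays. Of 17 measured clock genes, 4 were above 0.5 and 7 below -0.5, with a median of -0.44. Over all measured genes these shares were 2.63% and 3.24%. Arntl, which encodes BMAL1, gave 92.5 units on the oleanolic acid array and 25.3 on the control array, with a log2 ratio of 1.87 (probe set SD 0.27). Its control signal lay under the control array's median of 61.5 units. Arntl was therefore counted as measured through the oleanolic acid array alone, and its ratio rests on a dim control signal. Per3 gave 81.9 and 293.5 units on those arrays, -1.84 (probe set SD 0.25). Usp2 (-1.71 ± 0.24, SD, n = 2 probe sets) and Noct (-1.61, probe set SD 0.17) were low as well. The part of the hour of collection in the values of Gys2 and Ppp1r3c was not tested.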

How the data were processed

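Liver RNA from 2 pools was measured on Affymetrix 3' arrays. The deposited values are linear MAS5 intensities made by the authors, per the submitters' processing notes, which name no version. The mean of each column without the lowest and highest 2% was 298.0 (oleanolic acid) and 298.4 (control), and nothing was rescaled; the column medians were 59.6 and 61.7. Of 22690 probe sets, 64 Affymetrix controls, 691 with several symbols and 1555 with none were left out.

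Signals under the 25th percentile of their array (10.1 and 10.7) were raised to it before log2. Gene values are means over measured probe sets (signals: geometric means). All 8 glycogen genes matched RefSeq GRCm38.p6 by gene identifier. With 1 array per diet nothing was tested, and the number of arrays limits the precision. From each related list the 4 genes with the largest absolute log2 ratios are named at most, plus a few fixed enzymes. Members and lists were chosen with earlier results of these data known. Python 3.11.15, numpy 2.4.6 and pandas 2.3.3 were used, after testing on simulated data.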

Additional observations from a re-analysis of the deposited data

How the results depend on the processing

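Each value was recomputed under 8 alternatives: the floor at the array median, an offset of 16 units in place of a floor, no filter on dim probe sets, both arrays required to reach the median, quantile normalization, intensity-dependent centring, the brightest probe set alone, and probe sets ending in _x_at and _s_at left out. The count of glycogen genes above 0.5 and that below -0.5 were 1 in each of the 8, and the median over the 8 genes ran from -0.13 to -0.10. Gys2 and Gbe1, each with 1 bright probe set, could change only with the offset, quantile normalization or centring, so the other alternatives were no check on them. Gys2 ran from -0.72 to -0.69, Gbe1 from -0.42 to -0.40, Gyg from -0.48 to -0.40 and Ugp2 from -0.16 to -0.11, each within its probe set SD of the value reported. Pgm1, Pgm2 and Pygl stayed within 0.11 of 0 in all 8. Ppp1r3c moved by more than its small probe set SD in 4 of the 8, to 0.54 with the floor at the array median, 0.73 with the offset, 0.86 after quantile normalization and 0.89 after centring by intensity. In the first of these the floor takes the place of the dim control signal of 40.8 units. With no filter on dim probe sets the median of all genes was -0.08. No paired analysis was possible because each diet had 1 pooled array. Pooling hides variation between mice, and 6 of the 8 genes rested on 1 probe set.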
